A study of Mus musculus with 6 samples.

Results

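The genes described here are 44 members of the amino acid response that the transcription factor ATF4 controls, read by symbol from 48395 symbols measured in mouse LSK cells. LSK cells are the lineage-negative, Sca-1-positive, c-Kit-positive fraction of bone marrow in which stem cells and early progenitors of blood are found. The 44 symbols were listed by name, with earlier results of the same comparison of these libraries in view. The counts of members below therefore describe these libraries and support nothing about the choice. Of the 44, 43 passed the filter on low counts and entered the test, and Stc2 did not.

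All donor marrow came from Mx1Cre; Jak2V617F/+ mice primed with 5-fluorouracil, a drug that kills cycling progenitors. Mx1Cre is a Cre recombinase under the interferon-inducible Mx1 promoter, and Jak2V617F/+ is a heterozygous activating mutation of the kinase JAK2 found in myeloproliferative neoplasms. The marrow was transduced with a lentivirus carrying either the vector alone or Hmga2 and given to lethally irradiated C57BL/6 recipients. LSK cells were sorted 32 weeks after transplantation, from 3 biological replicates of each kind. Both groups thus share the Jak2 allele, the Cre, the drug and the transplantation, and by their labels they differ in the lentiviral insert. The labels name no sort for donor-derived or virus-carrying cells, and the age of the mice and the number behind each library are not named in the sources used here. Where separate animals are not stated, the tests measure only the spread between these libraries.

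When amino acids run short or protein folding in the endoplasmic reticulum is disturbed, kinases such as GCN2 (Eif2ak4) and PERK (Eif2ak3) phosphorylate the initiation factor eIF2. Most translation then slows, while the Atf4 transcript is translated more, so the level of Atf4 RNA is not a direct measure of ATF4 activity. ATF4 protein pairs with C/EBP factors on a composite DNA motif and raises genes for amino acid synthesis, amino acid import and the charging of tRNA, together with regulators that end the response or lead to cell death. Stem cells of the marrow are known for a low rate of protein synthesis and for sensitivity to this pathway.

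Total counts per library ranged from 24818000 to 35471800, so that 3 reads, the floor used here, correspond to 0.0846 to 0.121 CPM (reads scaled to library size; counting error only). The Hmga2 transcript did not separate the groups, reading 2.64, 6.63 and 5.92 CPM under the Hmga2 label against 5.97, 5.02 and 7.04 CPM with the vector (log2 fold change -0.25, 95% interval -1.08 to 0.58). Directions below are therefore given for "the libraries labelled Hmga2". The genes of the sort markers, Kit and Ly6a (Sca-1), were present in every library, as was Cd34, which is not among the sort markers named above. Igha, an immunoglobulin gene of plasma cells, exceeded 1000 CPM in vector replicates 1 and 3 and in Hmga2 replicate 2. Summed Y-linked genes were at 191 and 129 CPM in Hmga2 replicates 1 and 3 and between 5.24 and 21.4 CPM in the other libraries. Xist, transcribed from the inactive X chromosome, was at 29.1 and 168 CPM in those same libraries and at 449 to 645 CPM in the others. The labels used here name no sex for donors or recipients. Because high Y-linked levels fell only in libraries labelled Hmga2, the part of sex cannot be fully told apart from the group. Fits with a term for Y-linked genes are given below as values, and the part of sex was not tested.

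The pathway's transcripts lay mostly below the vector level in the libraries labelled Hmga2, by a small amount for most members. Among the tested members, the largest differences were those of Chac1, Slc7a3 and Asns, and of these Chac1 and Slc7a3 were scarce. Of 43 tested members, 39 had a negative log2 fold change (labelled Hmga2 minus vector) and the median was -0.19, where 49.6% of all 16736 tested genes were negative and their median was 0.00. The quasi-likelihood test of edgeR called no member at an adjusted p under 0.05, and it called 0% of all genes. At an unadjusted p under 0.05, 14 members were lower, or 32.6%, beside 3.36% of all genes, and 0 were higher, beside 2.23%. For 16 members, all 3 libraries labelled Hmga2 lay below all 3 vector libraries, as for 5.87% of all genes. No member had the opposite arrangement, which 5.31% of all genes had. DESeq2, the other tool, called 2 members lower, Asns and Atf4, beside 0.286% of genes that it called lower and 0.0387% higher, or 0.324% in either direction. Of the 14 members, 6 stayed at an unadjusted p under 0.05 in each of the 6 fits that left out 1 library: Atf4, Asns, Chac1, Mthfd2, Slc3a2 and Gars. In place of 14 members, 7 were found when vector replicate 2 or Hmga2 replicate 2 was dropped, 8 when Hmga2 replicate 1 was, and 9 when vector replicate 3 was.

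**Figure D1:**
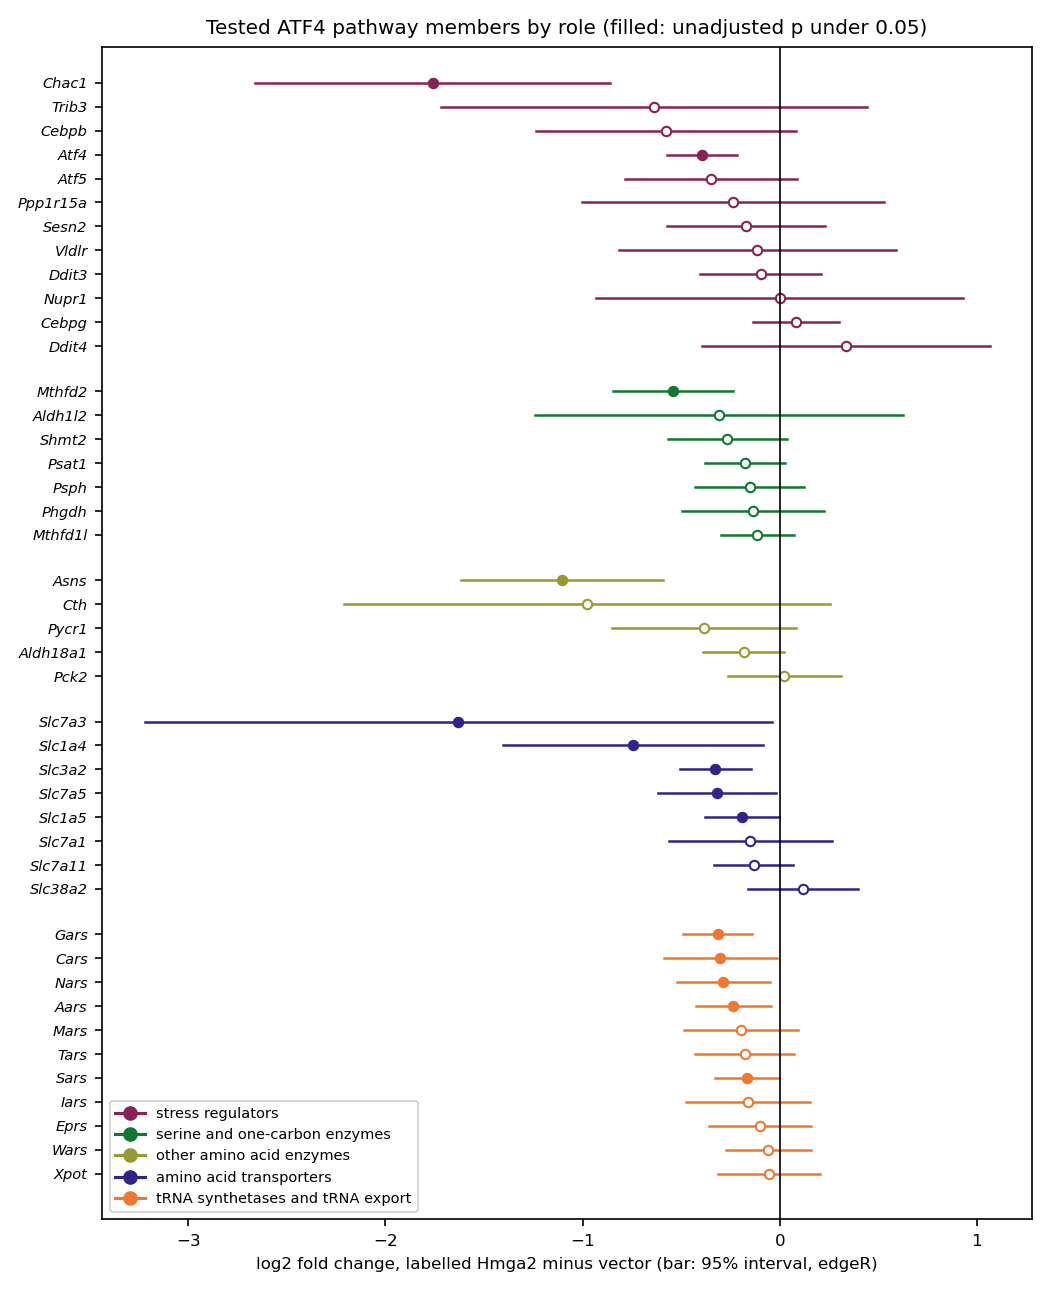
Log2 fold changes of the 43 tested members (x axis, labelled Hmga2 minus vector) with 95% intervals from edgeR, grouped by role on the y axis. Filled points mark the 14 members at an unadjusted p under 0.05, all of them to the left of 0.

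Atf4 (chromosome 15, positions 80255184 to 80257541 on mm10), the regulator that gives the pathway its name, was at 265, 265 and 276 CPM with the vector, against 211, 190 and 213 CPM under the Hmga2 label. The vector libraries were close together, and every library labelled Hmga2 lay below them. The group means were 269 ± 6.01 and 205 ± 13.1 CPM (SD, n = 3 each), a difference of -0.39 on the log2 scale (SE 0.08, 95% interval -0.57 to -0.21). This corresponds to 76.1% of the vector level. Over all genes DESeq2 called it (adjusted p = 0.0138), while edgeR gave an adjusted p of 0.855. Dropping any 1 library left the edgeR value between -0.42 and -0.34.

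Asns (chromosome 6, positions 7675169 to 7693254), which encodes asparagine synthetase and is a standard readout of amino acid shortage, was at 87.6, 101 and 54.4 CPM with the vector. Under the Hmga2 label it was at 41.2, 36.6 and 35.2 CPM. Vector replicate 3 was the lowest vector library and still lay above the other group. The groups differed by -1.11 on the log2 scale (SE 0.22, 95% interval -1.62 to -0.59), or 46.5% of the vector level. Its adjusted p was 0.855 in edgeR, while DESeq2 gave adjusted p = 0.000215. Behind these values stood 1126 to 2779 reads per library.

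Chac1 (chromosome 2, positions 119351229 to 119354381) encodes an enzyme that breaks down glutathione and is induced late in the response. It was scarce, with 19, 28 and 24 reads in the vector libraries and 9, 9 and 8 reads in the libraries labelled Hmga2. These correspond to 0.599, 1.08 and 1.01 CPM against 0.254, 0.293 and 0.233 CPM, and the groups did not overlap. The groups differed by -1.76 on the log2 scale (SE 0.38, 95% interval -2.66 to -0.86), or 29.5% of the vector level. Neither tool called it over all genes (adjusted p = 0.855 in edgeR and adjusted p = 0.421 in DESeq2).

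**Figure D2:**
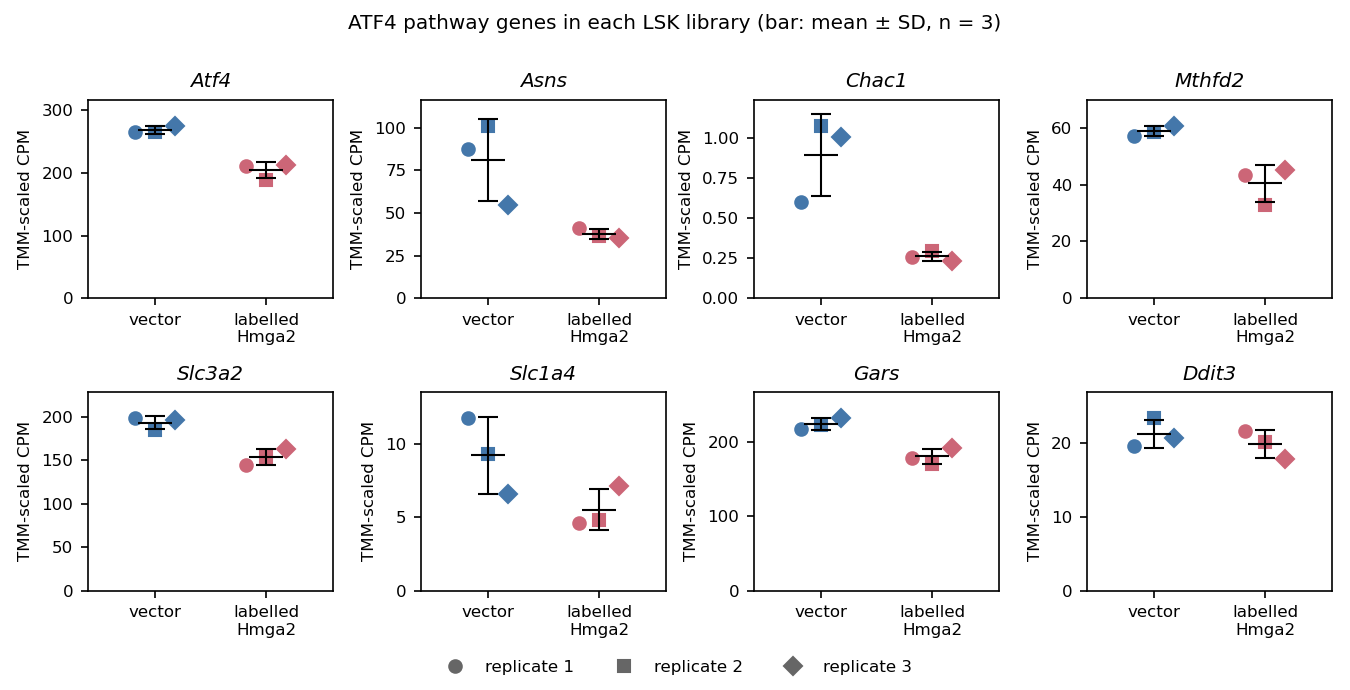
TMM-scaled CPM (y axis, from 0) of 8 members in each library, with the mean and SD of each group of 3; marker shapes give the replicate number. Atf4, Asns, Chac1, Mthfd2, Slc3a2 and Gars show separate groups, while Slc1a4 and Ddit3 overlap.

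The promoters of members were read for the composite motif through which ATF4 and C/EBP factors act. Whether the motif has a part in the differences between the groups was not tested. The motif searched was TGATGNAA or its reverse complement TTNCATCA, where N is any base, on either strand of the 300 bases from 250 before to 50 after each start annotated by RefSeq on GRCm38.p6. The RefSeq promoters of 34 members are described. Not found were Aldh1l2, Cars, Cth, Mars, Nars, Slc1a5, Slc7a3, Slc7a5 and Wars. A match was present in 12 of the 34, or 35.3%, beside 4.51% of all symbols in the table and 3.97% of all promoters. Members of this pathway served to define the motif in earlier work, so this share is a description and not independent evidence. The promoters of Asns, Chac1 and Gars are shown because these are the genes with a match among the 6 that stayed at an unadjusted p under 0.05 in every leave-one-out fit. Each is given as the 250 bases before the start, 5′ to 3′ on the gene's strand, with the match in capitals.
Asns at chr6:7693210-7693459, minus strand: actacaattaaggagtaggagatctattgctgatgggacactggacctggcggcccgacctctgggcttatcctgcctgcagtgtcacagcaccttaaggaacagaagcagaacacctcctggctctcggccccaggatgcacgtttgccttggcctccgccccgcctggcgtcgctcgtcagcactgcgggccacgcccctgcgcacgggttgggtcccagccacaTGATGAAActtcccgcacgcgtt
Chac1 at chr2:119350992-119351241, plus strand: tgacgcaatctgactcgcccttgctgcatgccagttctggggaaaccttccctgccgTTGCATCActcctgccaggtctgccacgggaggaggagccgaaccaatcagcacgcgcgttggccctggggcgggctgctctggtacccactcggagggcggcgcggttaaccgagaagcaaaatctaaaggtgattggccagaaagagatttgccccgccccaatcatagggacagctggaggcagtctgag
Gars at chr6:55037751-55038000, plus strand: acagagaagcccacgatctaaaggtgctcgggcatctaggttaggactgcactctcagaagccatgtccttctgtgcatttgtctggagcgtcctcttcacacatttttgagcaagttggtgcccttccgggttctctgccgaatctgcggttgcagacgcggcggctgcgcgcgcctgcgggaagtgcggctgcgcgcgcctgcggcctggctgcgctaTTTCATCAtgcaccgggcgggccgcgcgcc

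The matches of 7 other members are shown with 11 bases on either side, to compare genes that were lower with genes that hardly differed. In the order listed, the log2 fold changes were -0.74 for Slc1a4, -0.64 for Trib3, -0.38 for Pycr1, -0.18 for Tars, -0.13 for Slc7a11, 0.00 for Nupr1 and 0.02 for Pck2.
Slc1a4 at chr11:20332699-20332728, minus strand: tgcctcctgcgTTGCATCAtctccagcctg
Trib3 at chr2:152344028-152344057, minus strand: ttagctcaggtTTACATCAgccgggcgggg
Pycr1 at chr11:120643833-120643862, minus strand: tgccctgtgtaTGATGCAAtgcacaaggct
Tars at chr15:11399655-11399684, minus strand: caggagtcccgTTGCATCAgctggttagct
Slc7a11 at chr3:50443661-50443690, minus strand: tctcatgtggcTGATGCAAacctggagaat
Nupr1 at chr7:126625562-126625591, minus strand: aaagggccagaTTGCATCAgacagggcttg
Pck2 at chr14:55540152-55540181, plus strand: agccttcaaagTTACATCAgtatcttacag

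Slc7a11 held 2 matches, at -66 and -47 bases from the start, and the one at -66 is shown. The matches of Iars (log2 fold change -0.16) and Vldlr (-0.11) are not shown. The 12 members with a match had a median log2 fold change of -0.25 with 11 negative, and 21 tested members without one had a median of -0.17 with 18 negative. Mthfd2, Atf4 and Slc3a2, the others of those 6, had no match in this window. Over all tested symbols with a RefSeq promoter, 306 had a match and 44.4% of these were negative, beside 48.1% of the 10268 without one. A match in these letters is no measure of binding. By role, a match was present in 3 of 6 synthetase and tRNA export genes found, 3 of 4 other amino acid enzymes, 2 of 5 transporters, 4 of 13 stress regulators and 0 of 6 serine and one-carbon enzymes.

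**Figure D3:**
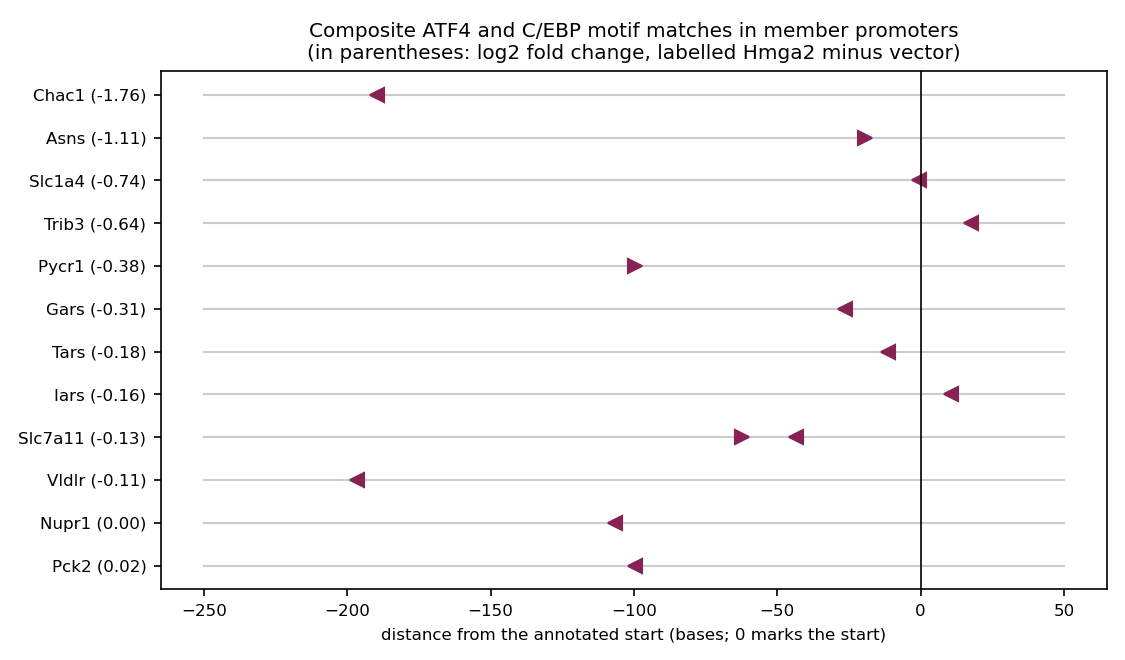
Positions of the 13 motif matches in 12 member promoters (x axis, bases from the annotated start), with genes ordered by log2 fold change on the y axis. Right-pointing triangles mark TGATGNAA and left-pointing ones its reverse complement; genes with a match run from -1.76 (Chac1) to 0.02 (Pck2).

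The stress regulators were uneven. Of 12 tested members, 2 were lower at an unadjusted p under 0.05 (Atf4 and Chac1), or 16.7%, beside 3.36% of all genes. Of the 12, 10 were negative, and the median was -0.20. Without vector replicate 2 this median was -0.34, and without Hmga2 replicate 3 it was -0.33. Ddit3, which encodes the death-promoting factor CHOP, read 19.7, 23.4 and 20.7 CPM against 21.7, 20.1 and 17.9 CPM (vector, then labelled Hmga2), with overlapping groups. Its log2 fold change of -0.10 had a 95% interval from -0.40 to 0.21. Trib3, which encodes a pseudokinase that restrains ATF4, read 3.84, 3.11 and 1.21 CPM against 1.39, 1.40 and 2.48 CPM. Vector replicate 3 was the lowest of all for Trib3, and its log2 fold change was -0.64 (SE 0.46).

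Genes for C/EBP partners of ATF4 and for the related factor ATF5 differed from one another. Cebpb read 10.5, 11.1 and 15.6 CPM against 5.96, 7.57 and 11.3 CPM, a difference of -0.58 on the log2 scale (SE 0.28, unadjusted p = 0.0772, edgeR). Atf5, a related factor translated in the same way as Atf4, read 16.3, 17.1 and 19.8 CPM against 10.8, 16.1 and 14.9 CPM, a log2 fold change of -0.35 with groups that did not overlap. Cebpg, whose product pairs with ATF4, stood at 73.0 ± 2.36 and 77.3 ± 8.07 CPM (SD, n = 3 each). Cebpb shares 20.7% of its exonic bases with Tmem189 on the opposite strand, so reads of these genes may be mixed.

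The other regulators varied widely among the libraries of a group. Ppp1r15a, encoding the GADD34 subunit that removes the phosphate from eIF2, was at 92.6 CPM in vector replicate 1 and between 40.8 and 67.5 CPM in the other 5 libraries. Ddit4, an inhibitor of the growth kinase mTORC1, ranged from 12.0 to 27.5 CPM among vector libraries and from 20.5 to 27.7 CPM in the libraries labelled Hmga2. Nupr1, Sesn2 and Vldlr had log2 fold changes of 0.00, -0.17 and -0.11, each with overlapping groups. Stc2, which encodes a secreted glycoprotein, fell under the count filter, with 7, 6 and 14 reads in the vector libraries and 1, 1 and 3 reads in the libraries labelled Hmga2. The summed counts of 27 and 5 gave a ratio of 0.15 with an exact 95% counting interval from 0.0453 to 0.396, which covers counting error only. Fitted without the filter, Stc2 had an unadjusted p = 0.00783 and adjusted p = 0.844 in edgeR.

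All 7 serine and one-carbon enzymes were below the vector level in the fit, from -0.54 to -0.11 on the log2 scale (median -0.18). Leaving out vector replicate 1 gave a median of -0.28, and leaving out vector replicate 3 gave -0.09. These enzymes build serine from a glycolytic intermediate and move its side-chain carbon into folate within mitochondria. Mthfd2, the mitochondrial folate dehydrogenase, was at 57.2, 58.4 and 60.8 CPM with the vector, against 43.3, 32.9 and 45.0 CPM under the Hmga2 label. The vector libraries were close together, and the groups were apart. The difference was -0.54 on the log2 scale (SE 0.13, 95% interval -0.84 to -0.24), or 68.8% of the vector level (adjusted p = 0.855 in edgeR and 0.0668 in DESeq2).

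The remaining serine and one-carbon enzymes lay closer to the vector level. Psat1, the aminotransferase of serine synthesis, read 243, 251 and 289 CPM against 233, 226 and 234 CPM, a difference of -0.18 on the log2 scale (SE 0.09). Its groups did not overlap, though vector replicate 3 alone lay well above the rest. Shmt2, which splits serine into glycine and a folate-bound carbon, read 311, 369 and 396 CPM against 307, 258 and 330 CPM, a difference of -0.27 on the log2 scale (SE 0.13). Phgdh, which catalyses the first step, was highest in vector replicate 3 (409 CPM) and lowest in vector replicate 1 (271 CPM), so that its vector libraries spanned the whole range of the other group. Mthfd1l had a log2 fold change of -0.11, and Psph, the phosphatase of the last step, was at 27.1 to 35.2 CPM over all libraries. Aldh1l2, a mitochondrial folate enzyme, was close to the floor at 0.358 to 0.754 CPM and shares 14.1% of its exonic bases with D10Wsu102e on the opposite strand.

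Among the other amino acid enzymes, 4 of 5 were negative, with a median of -0.38. Besides Asns, Aldh18a1, which makes the precursor of proline, read 144, 162 and 140 CPM against 137, 122 and 134 CPM. These groups did not overlap, and the log2 fold change was -0.18 (SE 0.09). Pycr1, the next enzyme towards proline, read 9.96, 7.80 and 9.72 CPM against 6.95, 5.82 and 8.28 CPM, a difference of -0.38 on the log2 scale (SE 0.20). Cth, which makes cysteine, was scarce at 0.198 to 0.838 CPM, and its interval ran from -2.21 to 0.26. Pck2, the mitochondrial PEP carboxykinase, was the exception in direction, at 164 ± 11.3 and 167 ± 26.0 CPM (SD, n = 3 each).

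Amino acid transporters were lower for 7 of 8 members, with a median of -0.26. At an unadjusted p under 0.05, 5 were lower, or 62.5%, beside 3.36% of all genes. Of these 5, Slc3a2 stayed so in each of the 6 fits that left out 1 library. Slc1a4, Slc1a5 and Slc7a3 did in 2 of the 6 fits each, and Slc7a5 in 1. Slc3a2, the heavy chain shared by several amino acid exchangers, was at 199, 185 and 196 CPM with the vector, against 145, 154 and 164 CPM under the Hmga2 label. The groups were apart by more than the spread within either, with a difference of -0.33 on the log2 scale (SE 0.08, 95% interval -0.51 to -0.15). Its light-chain partner for leucine, Slc7a5 (LAT1), read 205, 207 and 205 CPM against 157, 140 and 198 CPM. The vector libraries were nearly equal for Slc7a5, while Hmga2 replicate 3 came close to them, and the log2 fold change was -0.32 (SE 0.13). Slc7a11, the other partner listed, which imports cystine, was at 46.4 ± 2.86 and 42.4 ± 1.70 CPM (SD, n = 3 each), a small difference in which the groups did not overlap.

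Of the neutral amino acid carriers, Slc1a5, which carries glutamine, read 229, 244 and 253 CPM against 212, 199 and 225 CPM, a difference of -0.19 on the log2 scale (SE 0.08). Slc1a4, a carrier of alanine, serine and cysteine, read 11.8, 9.34 and 6.57 CPM against 4.61, 4.81 and 7.14 CPM. Hmga2 replicate 3 overlapped vector replicate 3 for Slc1a4, and the log2 fold change was -0.74 (SE 0.28, unadjusted p = 0.0324, edgeR). Slc38a2, a sodium-coupled carrier, was the single transporter with a positive value, at 219 ± 16.1 and 237 ± 33.4 CPM, a log2 fold change of 0.12 that became -0.06 once Y-linked genes entered the model. Of the cationic amino acid carriers, Slc7a1 stood at 73.0 to 116 CPM with overlapping groups. Slc7a3 was near the floor in several libraries, at 0.756, 0.231 and 1.26 CPM and at 0.170, 0.163 and 0.379 CPM. The groups overlapped for Slc7a3, and its log2 fold change was -1.63 (95% interval -3.22 to -0.04, unadjusted p = 0.0459, edgeR).

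All 10 aminoacyl-tRNA synthetases listed and the tRNA exporter Xpot had a negative log2 fold change, in a narrow range from -0.31 to -0.05 with a median of -0.18, which was -0.12 without vector replicate 3 or without Hmga2 replicate 2. Synthetases attach amino acids to their tRNAs. Gars, for glycine, was at 217, 223 and 232 CPM with the vector, against 178, 171 and 192 CPM under the Hmga2 label, with a gap between the groups. The difference was -0.31 on the log2 scale (SE 0.07, 95% interval -0.49 to -0.14), or 80.5% of the vector level (adjusted p = 0.855 in edgeR and 0.14 in DESeq2). Aars, for alanine, read 199, 213 and 214 CPM against 172, 167 and 192 CPM, a log2 fold change of -0.24. Aars shares 14.3% of its exonic bases with Exosc6.

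Nars, for asparagine, read 215, 231 and 233 CPM against 202, 161 and 194 CPM, and Cars, for cysteine, read 54.3, 69.1 and 60.3 CPM against 53.6, 44.0 and 51.3 CPM. Their log2 fold changes were -0.29 and -0.30, with standard errors of 0.10 and 0.12. Hmga2 replicate 2 was the lowest library for both. Eprs, for glutamate and proline, read 269, 262 and 265 CPM against 269, 208 and 266 CPM, so that 1 library alone lay below the others, and without it the log2 fold change was 0.01. Sars, for serine, had all 3 libraries labelled Hmga2 below the vector libraries, with a log2 fold change of -0.17 (unadjusted p = 0.0466, edgeR). The remaining members, Wars, Mars, Tars, Iars and Xpot, ranged from -0.20 to -0.05, each with overlapping groups.

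Set against exonic length, the most abundant members were the serine and one-carbon enzymes Phgdh and Shmt2 and Atf4 itself. Mean levels over the 6 libraries, in CPM per kilobase of exonic sequence, were 130 for Phgdh, 106 for Shmt2 and 100 for Atf4. The other serine and one-carbon enzymes ranged from 0.0683 to 57.8. Further levels were 64.8 for Gars, 57.8 for Psat1, 54.4 for Slc1a5 and 49.2 for Slc3a2. Asns stood at 21.7 and Ddit3 at 12.0 on the same scale. At the low end were Trib3 at 1.05, Chac1 at 0.352, Cth at 0.186, Slc7a3 at 0.130, Aldh1l2 at 0.0683 and Stc2 at 0.0382. The lengths are those of all exons of a gene merged, from GENCODE M21, and can exceed the length of a single transcript. The annotation behind the deposited counts is not named in the sources used here.

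By library, the members were not lowered evenly. Vector replicate 3 held the highest value of 21 members and Hmga2 replicate 2 the lowest value of 24, beside 22.4% and 16.3% of all tested genes. As deviations of log2 CPM from the gene mean, the median over the 43 members was 0.06, 0.12 and 0.16 in vector replicates 1, 2 and 3. It was -0.09, -0.26 and 0.00 in Hmga2 replicates 1, 2 and 3. Hmga2 replicate 3 thus sat near the vector libraries and Hmga2 replicate 2 farthest from them, and without Hmga2 replicate 2 the median fold change was -0.17 with 36 of 43 members negative. The groups did not overlap in this median for transporters, synthetases, other enzymes or stress regulators, but did for the serine and one-carbon enzymes, where vector replicate 1 was at -0.07 and Hmga2 replicate 3 at 0.00. Within vector libraries the median coefficient of variation of members was 9.34%, beside 13.5% for all tested genes, and within the libraries labelled Hmga2 it was 11.6%, beside 11.8%.

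**Figure D4:**
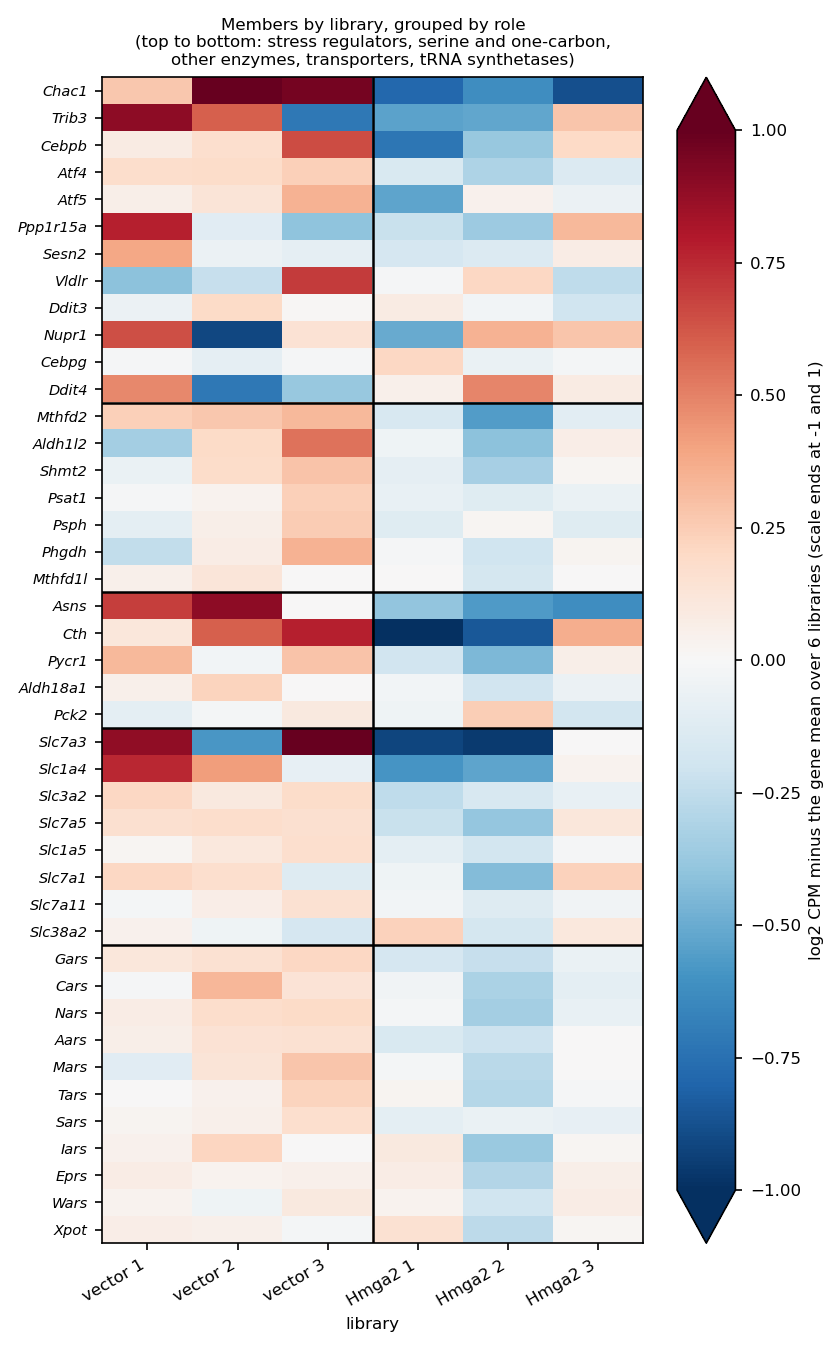
Each of the 43 tested members (rows, by role) in each library (columns), as log2 CPM minus the gene's mean over the 6 libraries, red above and blue below the mean. Vector columns are mostly red and Hmga2 replicate 2 mostly blue, while Nupr1, Ddit4, Vldlr and Ppp1r15a vary without regard to group.

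Upstream of ATF4, all 5 subunit genes of the exchange factor eIF2B and all 3 of eIF2 had a negative log2 fold change, and of these Eif2b2 and Eif2s1 had overlapping groups. Of the 4 kinases that start the response, Eif2ak2, Eif2ak3 and Eif2ak4 had overlapping groups, and Eif2ak1 did not (log2 fold change -0.11, unadjusted p = 0.159, edgeR). Of 16 genes of the eIF2 pathway, 11 were negative, with a median of -0.12, and 0 passed over all genes in edgeR. At an unadjusted p under 0.05, 6 of the 16 were lower, or 37.5%, beside 3.36% of all genes. Eif2ak4 (GCN2) was at 51.7 ± 2.73 and 52.2 ± 1.25 CPM (SD, n = 3 each), with an interval of the log2 fold change from -0.18 to 0.20. Eif2b3, a subunit of the exchange factor eIF2B, read 35.9, 36.6 and 37.0 CPM against 25.8, 26.5 and 29.6 CPM, a difference of -0.42 on the log2 scale (SE 0.09, unadjusted p = 0.00258 and adjusted p = 0.855, edgeR). Eif2s3x was at -0.34, Eif2b4 at -0.27, Eif2b1 at -0.26 and Eif2s2 at -0.22, each at an unadjusted p under 0.05.

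Synthetases outside the member list also lay mostly below the vector level. Of 13 further cytosolic synthetases and their scaffold proteins, 12 were negative, with a median of -0.18. At an unadjusted p under 0.05, 5 of them were lower, or 38.5%, beside 3.36% of all genes. Yars, for tyrosine, was at 113 ± 10.7 and 91.1 ± 5.72 CPM (SD, n = 3 each), which is -0.31 on the log2 scale. The 17 mitochondrial synthetases had a median of -0.07, with 14 negative and 0 at an unadjusted p under 0.05. Their values ranged from -0.23 to 0.18. No test compared these lists with the member synthetases.

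Folate enzymes outside mitochondria, together with the glycine cleavage system, had 7 of 10 tested genes negative and a median of -0.06. Mthfd1, the cytosolic folate enzyme, was at 269 ± 24.9 and 213 ± 25.7 CPM (SD, n = 3 each), which is -0.33 on the log2 scale. Mthfd1 was the single gene of this list lower at an unadjusted p under 0.05, or 10%, beside 3.36% of all genes. Other reported ATF4 targets had 12 of 17 tested genes negative and a median of -0.13. Among them Eif4ebp1, a brake on translation, was at -0.31 and Gpt2, an alanine aminotransferase, at -0.53. The stress factor gene Atf3 was at 0.283 to 2.56 CPM.

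Genes of the other arms of the unfolded protein response had 15 of 16 negative and a median of -0.14. At an unadjusted p under 0.05, 2 of them were lower, or 12.5%, beside 3.36% of all genes. Xbp1, the factor spliced by IRE1, read 162, 164 and 171 CPM against 139, 125 and 128 CPM, a difference of -0.34 on the log2 scale (SE 0.07, adjusted p = 0.855 in edgeR and 0.0742 in DESeq2). Its groups did not overlap, and the gene is also on the list of plasma and B cell genes given below. Genes of amino acid sensing to mTORC1 had the opposite balance, with 10 of 14 positive and a median of 0.12. This list holds inhibitors of mTORC1 and parts of mTORC1 itself as well as sensors, and 0 were at an unadjusted p under 0.05. None of these related genes passed over all genes in edgeR.

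**Figure D5:**
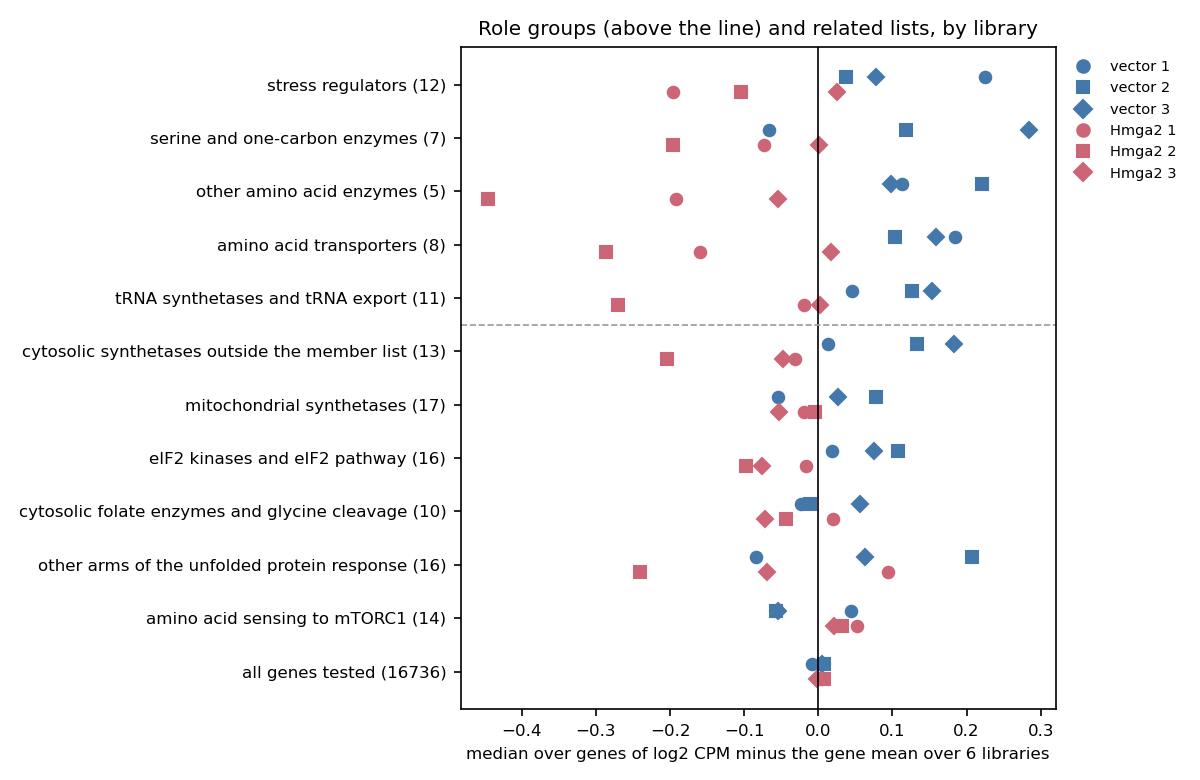
Median over tested genes of log2 CPM minus the gene mean (x axis) in each library, for the 5 role groups above the dashed line and for related lists and all 16736 tested genes below it (gene numbers in parentheses). Blue marks vector and red the libraries labelled Hmga2. Red points lie left of blue ones in 4 of the 5 role groups, narrowly for stress regulators (0.026 against 0.037). Serine and one-carbon enzymes overlap. Below the line, red points also lie left of blue ones for cytosolic synthetases outside the member list and for the eIF2 pathway, and the other lists overlap.

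Genes of other cell types moved with the groups or with single libraries, and their part in the values above was not tested. In these bulk samples, fewer cells of a type and less RNA per cell cannot be told apart. Of 10 granulocyte genes, 10 were lower in the libraries labelled Hmga2 and 7 did not overlap, beside 49.6% and 5.87% of all tested genes. Their summed level was 4385 to 9310 CPM in vector and 2983 to 4855 CPM in the others. Of these sums Mpo, whose groups overlapped, held 2990 to 6345 CPM and 1988 to 3506 CPM. Erythroid genes summed to 1490 to 1874 CPM and 1100 to 1550 CPM, with 7 of 10 lower. The 10 stem cell and sort markers summed to 1203 to 1366 CPM in vector and 1527 to 1584 CPM in the libraries labelled Hmga2, with 8 of 10 higher. Of these sums Cd34 held 526 to 755 CPM and 687 to 795 CPM. Kit held 248 to 354 CPM and 345 to 375 CPM. Both had overlapping groups, as had all of the 10 except Meis1, and Ly6a and Procr were lower. As deviations of log2 CPM from the gene mean, the median of the 10 was 0.50, -0.62 and -0.25 in the vector libraries. In the libraries labelled Hmga2 it was -0.01, 0.27 and 0.11. The 14 plasma and B cell genes summed to 528 to 12811 CPM and 472 to 4072 CPM, with 12 lower. Of the 6 T and NK cell genes, Cd3e and Cd3g were at no more than 0.0419 CPM, Cd8a at 0.0315 to 0.251 CPM, Cd4 at 0.0769 to 1.32 CPM, Klrb1c at 0.335 to 5.23 CPM and Nkg7, present in every library, at up to 231 CPM, each with overlapping groups. Megakaryocyte genes were higher for 7 of 7, summing to 512 to 937 CPM and 628 to 877 CPM.

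Among the libraries rich in Igha, Hmga2 replicate 2 minus vector replicates 1 and 3 gave a median difference of -0.36 over the members, with 40 of 43 negative. Among the others, Hmga2 replicates 1 and 3 minus vector replicate 2 gave -0.15, with 32 of 43 negative. In each of these comparisons 1 arm is a single library, so they are values with no test. Over all tested genes these medians were 0.01 and 0.00. Once the summed Y-linked level entered the model, the median over members was -0.30. High Y-linked levels occurred only under the Hmga2 label, in replicates 1 and 3, so this term and the group cannot be fully told apart. Eif2s3x, the X-linked eIF2 subunit gene, was lowest in Hmga2 replicates 1 and 3, at 240 and 238 CPM beside 303 CPM in Hmga2 replicate 2, the same libraries in which Y-linked genes were highest.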

How the data were processed

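RNA from sorted LSK cells was sequenced in 6 libraries, grouped by their titles. The values deposited by the authors are expected counts (estimated counts per symbol), judged from the values: none is negative, 67.3% to 70.1% of those above 0 are whole within 1e-06, and totals differ. Per the submitters' processing notes, Partek 3.0, Bowtie2 and mm10 were used. Neither counter, annotation nor strandedness was given in the sources used here. Rows with a repeated symbol (4) were left out.

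Counts were rounded and tested over all genes with edgeR 4.0.16 in R 4.3.3: filterByExpr, TMM, a quasi-likelihood F test on group, and Benjamini-Hochberg adjustment at 0.05. Standard errors derive from the F statistic, and CPM are TMM-scaled. DESeq2 1.42.0 was the other tool, run on all genes with a count. The log2 CPM used a prior count of 2. The steps were tested on simulated counts. Same-numbered replicates did not deviate together. No replicate pair matched within sampling noise (chi-square over its degrees of freedom 24.8 to 57.0).

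Members and lists were chosen with earlier results of these data known, and so were the alternatives. Named members are Atf4, Asns, Chac1, Trib3 and Ddit3, and in each role group up to 4 with the smallest p and those of highest and lowest level. In related lists the rule names up to 3 genes by p. Other genes named with values (Eif2ak4, the remaining members, Atf3, other eIF2 pathway genes, the T and NK cell genes) were chosen after their values were seen. Positions are from GENCODE M21 and promoters from RefSeq, both on GRCm38, the build of mm10. The promoter of 1 member is not reported here.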

Additional observations from a re-analysis of the deposited data

How the results depend on the processing

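The median over members kept its sign under every alternative run, and ranged from -0.27 to -0.17 with each library left out. With a term for Y-linked genes it was -0.30, as was that of the synthetases and tRNA export, and this term overlaps with the group. With a library left out, the serine and one-carbon median ranged from -0.28 to -0.09 and the synthetase median from -0.23 to -0.12. The stress regulator median ranged from -0.34 without vector replicate 2 to -0.16 without Hmga2 replicate 1. Members lower at an unadjusted p under 0.05 numbered 7 to 14 with a library left out, and negative members 36 to 39. All genes called numbered 1 without the count filter, 1 with a term for Y-linked genes, 67 in DESeq2 and 71 in DESeq2 started from the filtered genes, an alternative added after seeing the data. The last 2 called 2 and 4 members, the 4 being Atf4 (-0.40), Asns (-1.11), Mthfd2 (-0.54) and Gars (-0.32). Reversed values, all near 0, were the log2 fold changes of Slc38a2 (-0.060 with a term for Y-linked genes), Eprs (0.0086 without Hmga2 replicate 2) and Pck2 (-0.02 without vector replicate 1 and -0.11 without Hmga2 replicate 2, with leave-one-out values up to 0.11 and 0.18 with the Y-linked term); the cause was not tested. With the replicate number as a replicate block, edgeR called 0 members, 11 were lower at an unadjusted p under 0.05 and the median over members was -0.18. Same-numbered libraries deviated in opposite directions (correlations -0.21, -0.50 and -0.26), so the numbers do not pair them. Depth limits Chac1, Cth, Slc7a3, Aldh1l2 and Stc2, with at most 30 reads in each library.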
